A study of Mus musculus with 6 samples.

Results

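A set of 32 genes that make, sense, move and export cholesterol was followed in cultured cardiomyocytes of control and GR-cKO mice, the latter with the glucocorticoid receptor gene deleted in cardiomyocytes. The genes were chosen by symbol, with earlier results of these data known. They were matched through the Ensembl identifiers of the count tables and the GENCODE annotation of GRCm38, and all 32 were found among the 52550 genes counted. They comprise 18 enzymes of cholesterol synthesis, 5 genes of the sterol-sensing machinery, 4 genes of cholesterol uptake and transport inside the cell, and 5 genes of efflux, storage and their nuclear receptors. They do not cover every gene of the pathway.

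Cells came from hearts of mice on postnatal day 1, were enriched for cardiomyocytes by magnetic sorting, and were grown in medium with serum for 48 hours and then without serum for 24 hours. The 3 control libraries are labelled ctrl for genotype and the 3 others GR-cKO, and both carry the same treatment label, ctrl. The labels name neither the Cre driver, nor the deleted exon, nor the strain, and do not say whether a library came from 1 animal, a litter or a pool. The sample titles call each library a biological replicate, without saying how many animals it stands for. The p-values below rest on how far the libraries of a group differ, and part of that difference may be technical.

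Cells build cholesterol from acetyl-CoA through mevalonate, squalene and lanosterol. When sterols in the endoplasmic reticulum are low, the escort protein SCAP carries the transcription factors SREBP1 and SREBP2 to the Golgi, where they are cut and released to switch on the synthesis genes; when sterols are high, INSIG proteins hold SCAP back. The liver X receptors act in the opposite direction, sensing oxysterols and switching on genes of cholesterol efflux such as ABCA1. Heart muscle cells need cholesterol for their membranes and can both make it and take it up from lipoproteins.

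Depth was similar in all libraries, at 19371508 to 22583596 gene counts, and a count of 0 would allow a level of up to 0.133 to 0.155 CPM (3 counts, counting error only). The targeted gene, Nr3c1, stood at 68.2, 73.9 and 72.3 CPM in control and 46.2, 42.8 and 44.1 CPM in GR-cKO, so the GR-cKO libraries were all lower. Because the deleted exon is not named, it is not known whether these tags report the deletion itself. Cardiomyocyte markers were abundant in both groups, with Tnnt2 at 8130.7 to 9413.9 CPM, and the 12 listed markers summed to 35121.5 to 36781.4 CPM in control and 44744.3 to 47148.1 CPM in GR-cKO, where 8 were called higher and 1 lower (0 with ERCC spike-in scaling). Over all tested genes 7.63% were called higher and 7.19% lower. Xist stood at 271.5 to 292.6 CPM in control and at 0.0996 CPM or less in GR-cKO, while the Y-linked Ddx3y was at 18.3 to 21.3 and 86.4 to 94.7 CPM. Each control library thus held RNA of both sexes, which 1 animal alone would not give. The GR-cKO libraries held hardly any RNA of female cells, and sex and genotype cannot be told apart here. Levels are in CPM, the count of a gene relative to the total of its library, scaled by TMM factors. Because 1 tag is read per transcript, a level does not depend on the length of the transcript.

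The promoter windows of 4 members are shown: Hmgcs1 for its sterol element, Acat2 as the member with the smallest p, and the Insig pair because it moved in opposite directions. Each window runs from 250 bases before to 50 bases after the RefSeq start, on the strand of the gene, in GRCm38.p6. Hmgcs1 (chr13:119690101-119690400, plus strand) was the only called member whose window held the sterol regulatory element as searched, TCACNCCAC on either strand. Acat2 (chr17:12960676-12960975, minus strand), Insig1 (chr5:28071162-28071461, plus strand) and the first of 3 windows of Insig2 (chr1:121332540-121332839, minus strand) were added after their values were seen. The Insig2 window shown holds no sterol element within 1 letter, while the second Insig2 window, not shown, holds 1 (TCACTCCGC), and the second and the third each hold a GC box. Capitals mark CCAAT on either strand and every stretch at most 1 letter off the sterol regulatory element.
Hmgcs1: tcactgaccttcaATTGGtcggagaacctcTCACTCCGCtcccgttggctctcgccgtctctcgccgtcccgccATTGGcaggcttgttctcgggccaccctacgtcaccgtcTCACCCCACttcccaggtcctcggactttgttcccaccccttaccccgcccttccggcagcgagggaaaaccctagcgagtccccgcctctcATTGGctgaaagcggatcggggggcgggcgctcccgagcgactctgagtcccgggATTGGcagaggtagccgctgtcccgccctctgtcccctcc
Acat2: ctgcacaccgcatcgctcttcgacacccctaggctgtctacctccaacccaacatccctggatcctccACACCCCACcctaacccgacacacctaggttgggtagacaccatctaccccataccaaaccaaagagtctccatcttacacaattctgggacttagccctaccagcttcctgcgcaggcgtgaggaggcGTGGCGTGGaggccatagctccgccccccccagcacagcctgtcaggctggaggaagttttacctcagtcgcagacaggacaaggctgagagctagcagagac
Insig1: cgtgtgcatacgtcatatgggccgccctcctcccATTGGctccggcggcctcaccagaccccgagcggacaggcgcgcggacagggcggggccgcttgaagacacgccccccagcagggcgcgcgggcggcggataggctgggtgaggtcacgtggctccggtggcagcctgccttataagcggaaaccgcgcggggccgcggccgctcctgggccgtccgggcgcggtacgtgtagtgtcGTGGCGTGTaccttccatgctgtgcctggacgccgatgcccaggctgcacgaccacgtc
Insig2: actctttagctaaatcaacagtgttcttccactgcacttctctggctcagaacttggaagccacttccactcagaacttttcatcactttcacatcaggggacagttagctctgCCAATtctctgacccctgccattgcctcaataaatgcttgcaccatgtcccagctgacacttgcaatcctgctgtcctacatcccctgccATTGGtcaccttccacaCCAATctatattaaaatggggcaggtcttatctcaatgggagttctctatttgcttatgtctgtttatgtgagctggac

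Of the 32 members, 26 had at least 1 window in the RefSeq table, and Fdps, Fdft1, Sqle, Stard4, Npc1 and Abcg1 had none. The exact sterol element occurred in the windows of 1 of 26 members (3.85%), against 1.44% of the 27025 genes in the table and 1.38% of the tested genes with a window. Allowing 1 letter off, it occurred in 12 of 26 members (46.2%), 7 of 15 synthesis enzymes (46.7%) and 29.3% of tested genes. The letters CCAAT, bound by the factor NF-Y, a known partner of SREBP, were in the windows of 14 of the 15 synthesis enzymes with a window (93.3%; Acat2 was the exception) and in 42.7% of tested genes. GGGCGG, the GC box bound by SP1, was in 14 of 15 enzymes (93.3%) and 69.1% of tested genes. Genes with several windows count once if any window matches. Exact sterol elements are counted among those at most 1 letter off as well. Of the members with a window, 12 were called lower and 14 were not. CCAAT was found in 11 of the 12 (91.7%) and 10 of the 14 (71.4%), GGGCGG in 12 of the 12 and 11 of the 14 (78.6%), and the sterol element at most 1 letter off in 7 of the 12 (58.3%) and 5 of the 14 (35.7%). The 12 were enzymes apart from Insig1, while most of the 14 were not enzymes. The enzymes not called (Pmvk, Idi1, Ebp and Dhcr7) all held CCAAT. Of these, all but Pmvk held GGGCGG, and only Dhcr7 the sterol element at most 1 letter off. Members with matches in several windows (Dhcr7, Insig2, Srebf1, Scap and Nr1h3) were all among the 14. Whether the letters go with the call among enzymes alone was not tested. These counts are matches of letters, not measured binding.

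Synthesis enzymes were lower in GR-cKO along the whole pathway. Of the 18 enzymes, 13 fell and none rose, with a median log2 fold change of -0.50 (GR-cKO over control). Among all 14386 genes tested, 7.19% were called lower and 7.63% higher (edgeR quasi-likelihood test, Benjamini-Hochberg adjusted p below 0.05), and the median was -0.01. In 15 of the 18 enzymes every GR-cKO library lay below every control library, an arrangement found in 14.7% of all tested genes. The reverse arrangement, every GR-cKO library above every control library, was found in 15.2% of tested genes and in no enzyme. All 18 log2 fold changes were below 0. With scaling by the ERCC spike-in RNAs, which moved the median of all tested genes to 0.09, 17 enzymes were below 0 (Pmvk was at 0.01) and 11 were called lower. The largest drop of an enzyme, that of Fdps, was 1.69-fold. Because the members were chosen with earlier results of these data known, these shares are descriptions and not a test of the set.

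Summed over the 18 enzymes, the level was 2251.4, 2197.6 and 2239.1 CPM in control and 1667.7, 1641.0 and 1644.9 CPM in GR-cKO. The libraries of a group lay close together and the groups were far apart, with a GR-cKO sum 0.741 times that of control. The early, middle and late stages shared this ratio, at 0.739 for the 7 enzymes from acetyl-CoA to farnesyl pyrophosphate, 0.725 for the 3 enzymes from there to lanosterol and 0.746 for the 8 later enzymes. The sum is dominated by its most abundant members, Hmgcs1, Cyp51 and Msmo1.

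**Figure D1:**
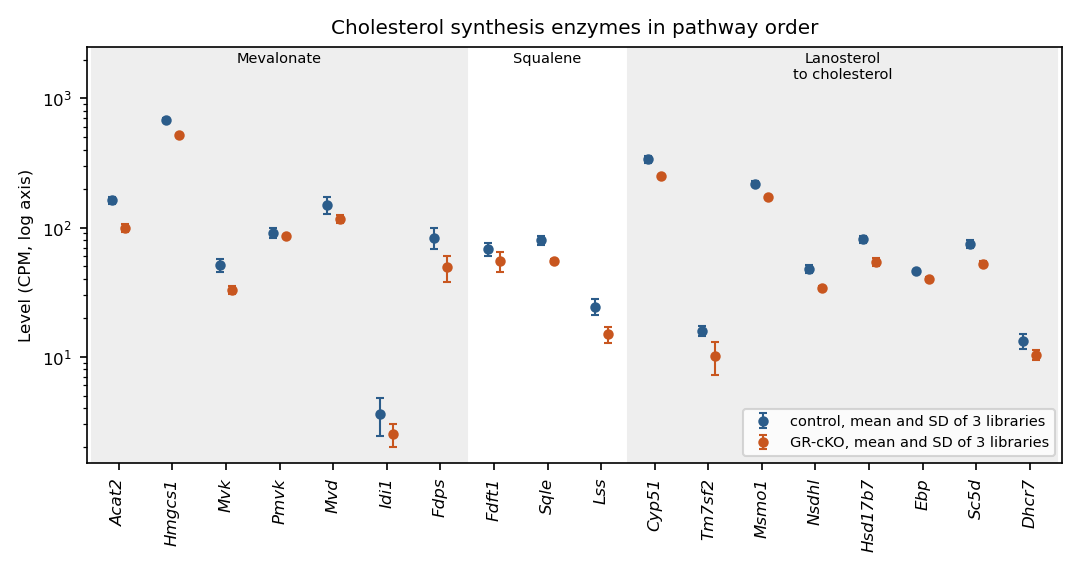
Levels of the 18 synthesis enzymes in pathway order (CPM, log axis), shown as the mean and SD of 3 control and 3 GR-cKO libraries. The GR-cKO mean is below the control mean at every enzyme, and levels run from 3.63 CPM for Idi1 to 681 CPM for Hmgcs1 in control.

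In the mevalonate stage 5 of 7 enzymes fell, beside 7.19% of all tested genes called lower. Acat2, the cytosolic thiolase that joins 2 acetyl-CoA units (ENSMUSG00000023832, GRCm38 chr17:12942890-12960747, minus strand), had the smallest p of all members. It stood at 173, 162 and 152 CPM in control and 101, 92.5 and 106 CPM in GR-cKO. The groups did not overlap, and the log2 fold change was -0.70 ± 0.08 (SE; adjusted p = 4.96e-07). Hmgcs1, which makes HMG-CoA and was the most abundant member, was at 664, 674 and 704 CPM in control and 537, 505 and 511 CPM in GR-cKO. Its 3 GR-cKO libraries were again all below the controls, with a log2 fold change of -0.39 ± 0.06 (adjusted p = 4.49e-05).

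Mvk, the kinase that phosphorylates mevalonate, was measured at 57.8, 45.7 and 50.7 CPM in control and 33.7, 34.7 and 30.5 CPM in GR-cKO. This was a log2 fold change of -0.64 ± 0.10 (adjusted p = 9.33e-05), without overlap. The next kinase of the pathway, Pmvk, did not pass: it was at 98.0, 92.3 and 82.6 CPM in control and 85.8, 82.5 and 88.0 CPM in GR-cKO, with overlapping groups and a log2 fold change of -0.09 ± 0.08. Mvd, the decarboxylase that yields isopentenyl pyrophosphate, fell from 175, 136 and 140 CPM to 117, 124 and 108 CPM. Control replicate 1 was well above the other controls. The log2 fold change of Mvd was -0.37 ± 0.09 (adjusted p = 0.00537), and the call was lost without that library (-0.24, adjusted p = 0.0593) and with ERCC scaling (-0.27, adjusted p = 0.0759).

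Fdps, the synthase of farnesyl pyrophosphate, the branch point to sterols and prenylated proteins, had the largest drop of the enzymes. Its levels were 101, 72.5 and 77.1 CPM in control and 51.7, 59.2 and 37.1 CPM in GR-cKO, with a log2 fold change of -0.76 ± 0.13 (adjusted p = 1.8e-04). Both groups of Fdps libraries were widely spread, yet they did not overlap. Its rank rested on single libraries. Without GR-cKO replicate 3 its log2 fold change was -0.58 (Acat2 -0.74), and without control replicate 1 it was -0.60 (Acat2 -0.655). The call on Fdps held in both, and with DESeq2 (adjusted p = 0.0176). The Fdps gene overlaps Gm43738 on the same strand, away from its 3' end. Idi1, an isomerase of isopentenyl pyrophosphate, was scarce, with at most 101 counts in a library. It stood at 3.79, 4.73 and 2.37 CPM in control and 2.21, 3.09 and 2.21 CPM in GR-cKO, and its log2 fold change of -0.54 ± 0.34 did not pass (-0.30 without control replicate 2).

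From farnesyl pyrophosphate to lanosterol, 2 of 3 enzymes fell, beside 7.19% of all tested genes called lower. Sqle, the oxygen-dependent squalene epoxidase and a control point of the pathway, was at 86.1, 78.7 and 73.7 CPM in control and 53.6, 53.8 and 56.9 CPM in GR-cKO. The GR-cKO libraries were nearly equal and all lower, with a log2 fold change of -0.54 ± 0.09 (adjusted p = 7.64e-05). Lss, which folds squalene epoxide into lanosterol, went from 25.7, 20.7 and 27.0 CPM to 17.3, 13.8 and 13.6 CPM, a log2 fold change of -0.71 ± 0.14 (adjusted p = 8.17e-04) without overlap. Fdft1, the squalene synthase, just missed the threshold. It was at 60.1, 75.3 and 68.1 CPM in control and 44.8, 55.6 and 64.3 CPM in GR-cKO, so GR-cKO replicate 3 lay inside the control range (log2 fold change -0.31 ± 0.11, adjusted p = 0.067). Leaving out 1 library moved the log2 fold change of Fdft1 between -0.18 (without GR-cKO replicate 1, adjusted p = 0.368) and -0.43 (without GR-cKO replicate 3, adjusted p = 0.0128). It passed also without control replicate 1 (-0.39, adjusted p = 0.0308), and not in the other leave-outs. The annotated 3' end of Fdft1 lies within the oppositely transcribed gene Ctsb, and the strand setting of the counting is not given in the sources used here, so its count is uncertain.

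Of the 8 enzymes after lanosterol 6 fell, and in all 8 the GR-cKO libraries lay below the controls. Over all tested genes the shares were 7.19% and 14.7%. Cyp51, the lanosterol demethylase, was at 313, 342 and 356 CPM in control and 251, 244 and 254 CPM in GR-cKO (log2 fold change -0.43 ± 0.07, adjusted p = 5.09e-05). Its 3' end overlaps Akap9 on the other strand, which makes its count uncertain in the same way. Msmo1, the methyl sterol oxidase, was at 211, 218 and 228 CPM in control and 172, 171 and 172 CPM in GR-cKO. The 3 GR-cKO values of Msmo1 were almost identical. The log2 fold change was -0.35 ± 0.07 (adjusted p = 5.69e-04), and with ERCC scaling it was -0.26 and did not pass (adjusted p = 0.0724).

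Hsd17b7, the sterol ketoreductase, had levels of 75.6, 81.4 and 86.5 CPM in control and 55.9, 56.3 and 49.7 CPM in GR-cKO, all lower than control. Its log2 fold change was -0.59 ± 0.09 (adjusted p = 3.12e-05). Sc5d, the sterol desaturase, was at 77.3, 77.7 and 68.8 CPM in control and 54.4, 49.9 and 53.6 CPM in GR-cKO. The log2 fold change of Sc5d was -0.50 ± 0.09 (adjusted p = 1.89e-04). Tm7sf2, a sterol reductase whose gene overlaps Vps51 on the same strand, fell from 17.1, 14.5 and 16.2 CPM to 7.91, 9.07 and 13.4 CPM, with GR-cKO replicate 3 close to the lowest control. This was a log2 fold change of -0.66 ± 0.18 (adjusted p = 0.0133). The call on Tm7sf2 was lost without control replicate 1 (adjusted p = 0.0538), GR-cKO replicate 1 (adjusted p = 0.0969) or GR-cKO replicate 2 (adjusted p = 0.0727).

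A pair of the late enzymes is on the X chromosome, in libraries whose sex and genotype cannot be told apart. Nsdhl, a sterol dehydrogenase, was at 52.0, 45.9 and 45.6 CPM in control and 33.4, 35.2 and 33.5 CPM in GR-cKO (log2 fold change -0.49 ± 0.10, adjusted p = 8.26e-04). Ebp, the sterol isomerase, was at 46.8, 45.2 and 46.6 CPM in control and 38.8, 41.6 and 40.0 CPM in GR-cKO and did not pass (log2 fold change -0.20 ± 0.09, adjusted p = 0.16). Dhcr7, the last reductase to cholesterol, was also not called, at 13.7, 11.3 and 14.7 CPM in control and 10.8, 9.36 and 10.97 CPM in GR-cKO (-0.35 ± 0.16). Without the genes of chromosomes X and Y, 14 members were lower and 2 higher.

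**Figure D2:**
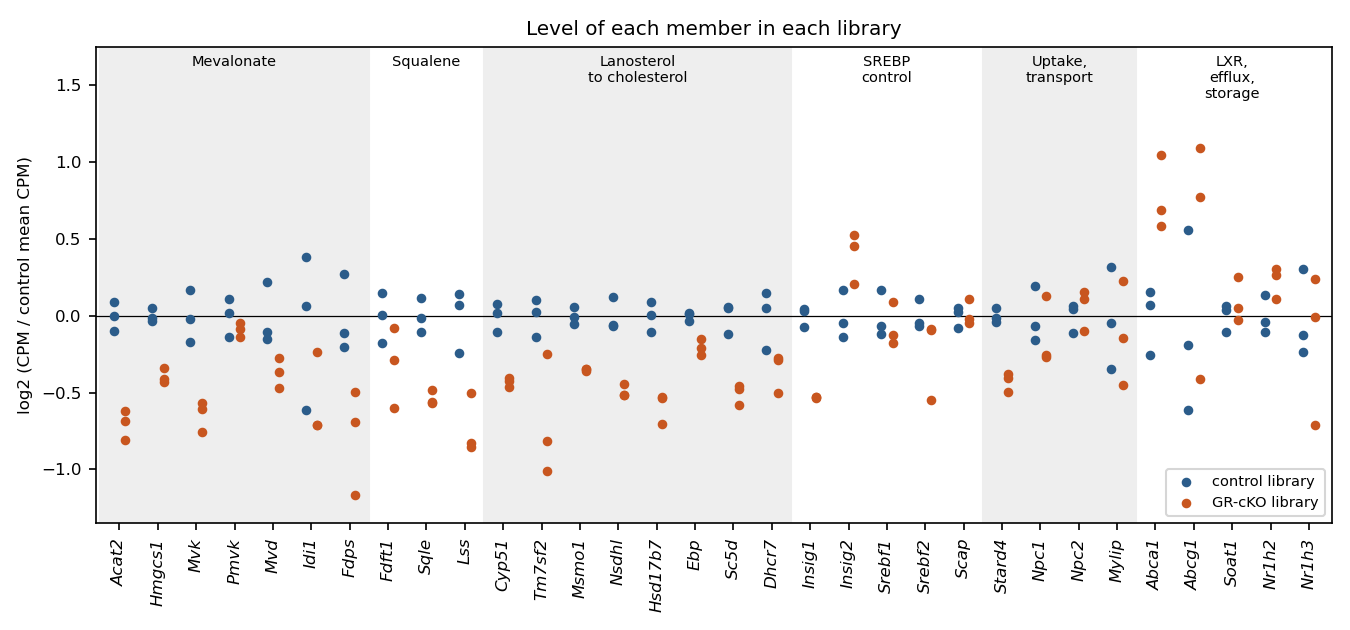
Level of each of the 32 members in each library, as log2 of its CPM over the control mean, grouped by role. GR-cKO points lie below all control points at 15 of the 18 enzymes and at Insig1, Srebf2 and Stard4, and above them at Insig2 and Abca1. Over all tested genes 14.7% lie below in this way and 15.2% above.

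Among the sterol sensors the Insig genes moved in opposite directions. Insig1, itself a known SREBP target (ENSMUSG00000045294, GRCm38 chr5:28071363-28078662, plus strand), was at 73.5, 79.1 and 79.7 CPM in control and 53.7, 53.5 and 53.7 CPM in GR-cKO. It fell by 0.53 on the log2 scale (SE 0.08, adjusted p = 5.75e-05), with GR-cKO libraries that hardly differed from each other. Insig2, whose transcription is known to be less dependent on SREBP (ENSMUSG00000003721, GRCm38 chr1:121304353-121332589, minus strand), was at 31.2, 33.1 and 38.5 CPM in control and 49.4, 39.6 and 46.9 CPM in GR-cKO. Its log2 fold change was 0.40 ± 0.11 (adjusted p = 0.0129), and GR-cKO replicate 2 lay just above the highest control. The call on Insig2 was lost without control replicate 1 (adjusted p = 0.0703), control replicate 2 (adjusted p = 0.0629) or GR-cKO replicate 1 (adjusted p = 0.089).

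The ratio of Insig2 to Insig1 counts within a library does not depend on the scaling between libraries. It was 0.424, 0.419 and 0.483 in control and 0.920, 0.740 and 0.873 in GR-cKO, so that Insig2 counts came close to those of Insig1 in the GR-cKO libraries. The ratio was 1.91-fold higher in GR-cKO, with 3 of 3 libraries above all controls. An exact two-sided permutation test gave p = 0.1, the smallest that 3 libraries against 3 allow.

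The SREBP genes and their escort did not pass. Srebf2, which encodes the SREBP most tied to cholesterol synthesis, was at 114, 101 and 102 CPM in control and 99.2, 99.7 and 72.5 CPM in GR-cKO. All 3 GR-cKO libraries were below the controls, but 2 of them only slightly, and the log2 fold change of -0.23 ± 0.10 did not pass (adjusted p = 0.145). Without GR-cKO replicate 3 it was -0.08 (adjusted p = 0.626). Srebf1 was at 48.3, 41.0 and 39.5 CPM in control and 38.0, 39.4 and 45.8 CPM in GR-cKO, with overlapping groups and a log2 fold change of -0.06 ± 0.11. Its 3' end overlaps Rai1 on the other strand, and a 3' tag does not separate its isoforms. Scap was at 35.9 to 39.4 CPM in control and 36.7 to 41.0 CPM in GR-cKO.

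The ratio of Srebf1 to Srebf2 was 0.423, 0.406 and 0.385 in control and 0.383, 0.396 and 0.632 in GR-cKO. A single library, GR-cKO replicate 3, stood apart, with the lowest Srebf2 and the highest Srebf1 of its group (exact two-sided permutation test, p = 0.9). Without it the mean log2 ratio differed by -0.05 in place of 0.18. These are levels of mRNA, and the processing of SREBP proteins was not measured.

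**Figure D3:**
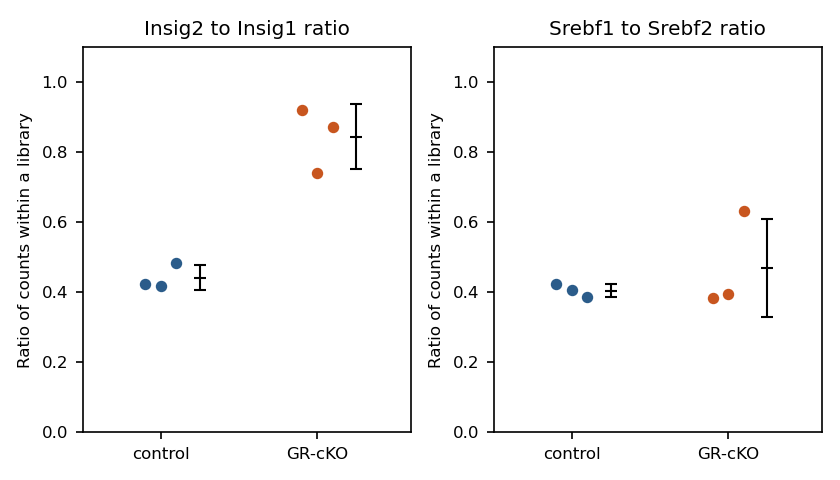
Ratio of Insig2 to Insig1 counts (left) and of Srebf1 to Srebf2 counts (right) in each of the 3 control and 3 GR-cKO libraries, with the mean and SD beside the points. The Insig ratio is 0.740 to 0.920 in GR-cKO and 0.419 to 0.483 in control, while in the Srebf ratio GR-cKO replicate 3, at 0.632, is apart from the other libraries.

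Of the 4 genes of uptake and intracellular transport only Stard4 was called, lower in GR-cKO, beside 7.19% of all tested genes called lower. STARD4 carries sterols between membranes and its gene is a known SREBP2 target. It was at 74.0, 77.2 and 72.6 CPM in control and 56.3, 53.0 and 57.3 CPM in GR-cKO. The groups did not overlap, and the log2 fold change was -0.43 ± 0.08 (adjusted p = 7.2e-04). Npc2 and Npc1, which pass cholesterol out of lysosomes, did not pass: Npc2 was at 525, 471 and 531 CPM in control and 566, 549 and 475 CPM in GR-cKO, and Npc1 at 27.5 to 35.0 CPM and 25.4 to 33.4 CPM. Mylip, the ubiquitin ligase that targets lipoprotein receptors for degradation and a known liver X receptor target, was scarce and overlapped between groups, at 4.12 to 6.52 CPM and 3.83 to 6.13 CPM (log2 fold change -0.09 ± 0.26).

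Among the liver X receptor and efflux genes 1 of 5 rose, beside 7.63% of all tested genes called higher. So small a count is given as a description only. Abca1, which exports cholesterol to apolipoproteins (ENSMUSG00000015243, GRCm38 chr4:53030787-53159895, minus strand), was at 9.49, 10.0 and 7.56 CPM in control and 18.6, 13.6 and 14.5 CPM in GR-cKO. Every GR-cKO library of Abca1 was above every control, with a log2 fold change of 0.79 ± 0.17 (adjusted p = 0.00218), the largest rise of any member. Abcg1, a second exporter, was scarce and overlapped between groups, at 1.30, 1.73 and 2.91 CPM in control and 1.49, 3.39 and 4.22 CPM in GR-cKO (log2 fold change 0.61 ± 0.42, adjusted p = 0.392). Its log2 fold change was 0.30 without GR-cKO replicate 3, 0.38 without control replicate 1, 0.94 without GR-cKO replicate 1 and 0.99 without control replicate 3, and passed in none of these. Soat1, which esterifies cholesterol for storage, was at 53.3 to 59.98 CPM in control and 56.5 to 68.5 CPM in GR-cKO. The liver X receptor genes did not pass, with Nr1h2 at 17.5 to 20.6 CPM and 20.3 to 23.2 CPM and Nr1h3 at 3.74 to 5.43 CPM and 2.69 to 5.20 CPM.

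Over all 32 members, 15 were lower and 2 higher, with a median log2 fold change of -0.35. With ERCC scaling 13 were lower and 2 higher and the median was -0.26; over all tested genes that scaling changed 1097 higher and 1035 lower calls to 1355 and 522. Of the 14 members that are not enzymes, 2 fell and 2 rose, and their median was -0.02. Over all tested genes 7.19% were called lower and 7.63% higher, and the 2 higher calls among all 32 members were near that background. The counts among these 14 are small and are given as descriptions only.

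**Figure D4:**
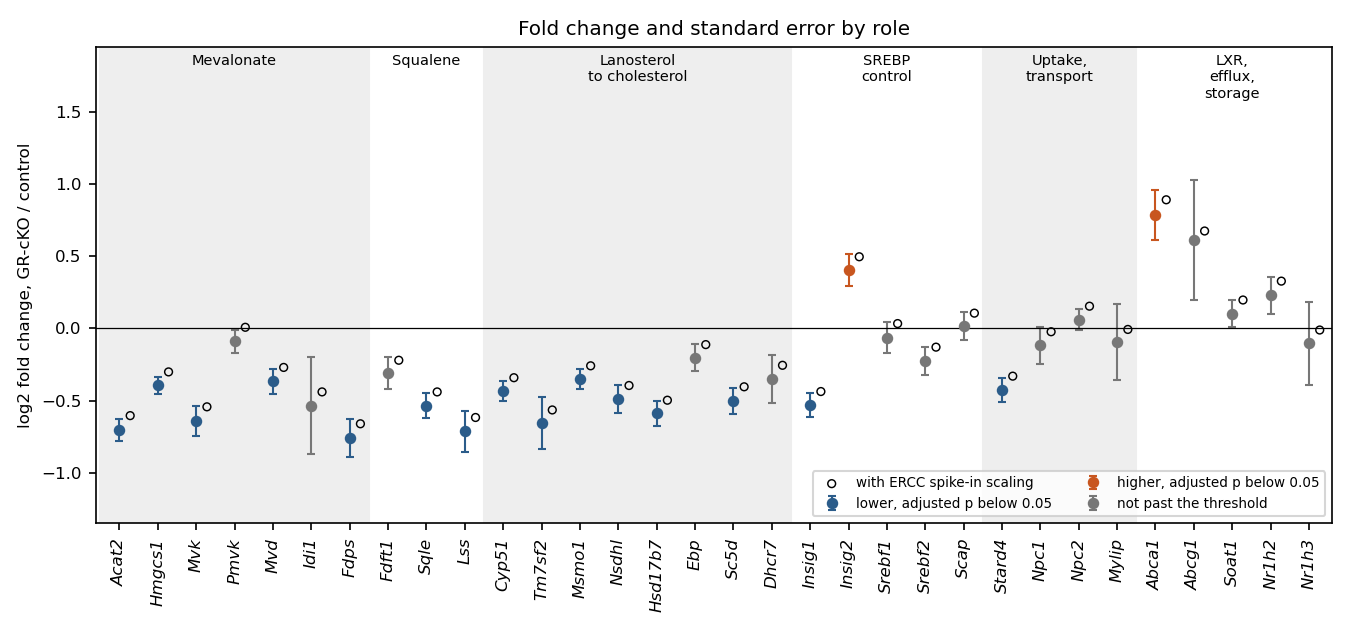
Log2 fold change of each member (GR-cKO over control) with its standard error from edgeR, coloured by call, and beside it as an open circle the value with ERCC spike-in scaling. With ERCC scaling Mvd and Msmo1 lose their call, and Pmvk and Srebf1, neither of them called, cross 0.

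Other genes of the pathway, 63 in 5 further lists, moved less uniformly; 61 could be tested, of which 10 fell and 4 rose. Beside the 7.19% lower and 7.63% higher of all tested genes, most counts in these lists are small and are given as descriptions only. None of the 9 genes of the branch to prenylated proteins, dolichol and ubiquinone passed, with a median log2 fold change of -0.07 (0.03 with ERCC scaling). Ggps1, which makes geranylgeranyl pyrophosphate, was at 30.6 to 32.2 CPM in control and 25.6 to 28.5 CPM in GR-cKO. Among 9 tested genes of acetyl-CoA supply and other sterol conversions, 3 fell and 1 rose. The ATP citrate lyase Acly, which supplies cytosolic acetyl-CoA, fell by 0.62 on the log2 scale (adjusted p = 1.26e-06), Aacs, which activates acetoacetate, by 0.78 (adjusted p = 4.09e-05), and Lbr, a nuclear envelope protein with sterol reductase activity, by 0.50 (adjusted p = 1.59e-04). Acss2, which makes acetyl-CoA from acetate, rose (log2 fold change 0.40 ± 0.11, adjusted p = 0.0188).

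Of 14 other genes of sterol sensing and partner factors 1, Rnf145, a sterol-responsive ubiquitin ligase, fell (log2 fold change -0.36, adjusted p = 0.0101), a share near the 7.19% of all tested genes, and with ERCC scaling none passed. The protease genes Mbtps1 and Mbtps2 that cut SREBPs were at 101 to 125 CPM and 7.85 to 11.1 CPM over all libraries, without a call. Of 18 tested genes of uptake and transport outside the members 3 fell and 3 rose. The lipoprotein receptor genes Vldlr and Lrp8 rose, Vldlr from 67.5, 65.3 and 61.3 CPM to 113, 116 and 109 CPM (log2 fold change 0.80 ± 0.08, adjusted p = 8.18e-08) and Lrp8 by 0.42 ± 0.09 (adjusted p = 0.00169), and so did Gramd1a, a sterol transporter at membrane contacts (0.36 ± 0.10, adjusted p = 0.0122). Cav1, the caveolar coat protein that binds cholesterol, fell by 0.45 on the log2 scale (adjusted p = 7.39e-04), Tmem97, a regulator of NPC1, by 0.43 (adjusted p = 0.00197) and Lipa, the lysosomal acid lipase, by 0.30 (adjusted p = 0.044; 0.268 with ERCC scaling). Of 11 genes of fatty acid synthesis that SREBPs are known to regulate 3 fell: Elovl6, at 54.0 to 55.9 CPM in control and 22.0 to 26.9 CPM in GR-cKO, Fasn (log2 fold change -0.42) and Acaca (-0.41; adjusted p = 0.137 with ERCC scaling). Scd1 and Scd2 did not pass. Scd2, the most abundant of the 11, was higher in every GR-cKO library than in any control (log2 fold change 0.18, adjusted p = 0.0671). While 10 of the 11 log2 fold changes were below 0, the summed level in GR-cKO was 0.987 times that of control.

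Markers of other cell types and of cell division also differed between these libraries. The counts of calls below stand beside 7.63% higher and 7.19% lower over all tested genes. All 12 listed cell division genes fell, and their sum was 886.1 to 916.1 CPM in control and 454.5 to 475.7 CPM in GR-cKO. Summed fibroblast markers were at 3627.1 to 3829.2 CPM in control and 4732.7 to 4854.7 CPM in GR-cKO, endothelial markers at 1261.8 to 1372.6 CPM and 1413.9 to 1566.5 CPM, and smooth muscle and pericyte markers at 3604.5 to 3711.4 CPM and 4231.8 to 4446.6 CPM. The smooth muscle and pericyte sum is dominated by Acta2, at 3242.7 to 3351.9 CPM in control and 3721.0 to 3953.7 CPM in GR-cKO. By calls, 4 of 9 fibroblast, 6 of 9 endothelial and 5 of 7 smooth muscle and pericyte markers rose, while 1, 1 and 0 fell. Epicardial markers summed to 98.7 to 104 CPM in control and 95.2 to 109 CPM in GR-cKO, with 2 of 6 higher and 3 lower. Leukocyte markers were scarce, at 13.7 to 17.9 CPM in control and 35.2 to 55.5 CPM in GR-cKO, with Ptprc at or below 1.03 CPM in every library, and 2 of the 5 that could be tested rose and none fell (Lyz2 by 1.65 and Tyrobp by 3.12 on the log2 scale, adjusted p = 5.31e-08 and 0.00194). Tyrobp was barely counted in control, at 0.192, 0.0469 and 0.346 CPM, and had 118 counts over all libraries. Erythroid markers summed to 1.31 to 3.02 CPM in control and 3.52 to 5.00 CPM in GR-cKO, without overlap, and neither of the 2 that could be tested was called. The part of cell composition, cell division and sex in the values of the cholesterol genes was not tested. In these bulk libraries fewer cells of a type and less RNA per cell cannot be told apart.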

How the data were processed

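Messenger RNA of cultured neonatal cardiomyocytes was counted with QuantSeq 3' forward libraries, 3 control and 3 GR-cKO. The authors deposited raw counts per Ensembl gene, 1 table per library with 52649 rows, made per the submitters' processing notes with cutadapt 1.16, STAR 2.5.4a and featureCounts 1.6.2 on GRCm38. The strand setting and the treatment of multiply mapped reads were not stated in the sources at hand. ERCC and SIRV spike-in rows, 1.98% to 2.36% of counts, stayed out of library sizes and tests. Symbols, coordinates and overlaps came from GENCODE M21.

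GR-cKO was tested against control with edgeR 4.0.16 (quasi-likelihood test, TMM factors of 0.980 to 1.02, default low-count filter, R 4.3.3) over 14386 genes with Benjamini-Hochberg adjustment and a threshold of 0.05. The script was tested on simulated data. Each standard error is the log2 fold change over the root of its F value. Alternatives were RLE and ERCC scaling, DESeq2 1.42.0, 2 other filters, the replicate number as a block, leaving out each library, and leaving out chromosomes X and Y. Promoter windows are RefSeq's, in GRCm38.p6. The search at most 1 letter off the sterol element and the windows other than that of Hmgcs1 were added after seeing the data.

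Every member is named by role, and of each other list the called genes up to the 4 with the smallest p. Gramd1a, Lipa, Ggps1, Mbtps1, Mbtps2, Scd1, Scd2, Lyz2, Tyrobp and Acta2 were named after their values were seen. Members and lists were chosen with earlier results of these data known.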

Additional observations from a re-analysis of the deposited data

How the results depend on the processing

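No called member changed direction under the 13 alternatives run, and 27 of 32 members kept their side of the threshold in all of them. Of 414 values, 9 lost a call and 4 gained one (all 4 Fdft1). The number of members lower was 13 to 16 over all alternatives. The number higher fell from 2 to 1 when any of 3 libraries (control 1, control 2, GR-cKO 1) was left out, each time by the loss of Insig2, so leaving out a library gave 1 to 2. The difference in the log2 ratio of Srebf1 to Srebf2 ran from -0.0548 to 0.306 when a library was left out; it reversed to -0.0548 without GR-cKO replicate 3. The split of all calls, 51.5% higher, became 72.2% higher with ERCC scaling, which called 522 genes lower in place of 1035.

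Same-numbered libraries did not deviate together (correlations of -0.000102, 0.0366 and 0.0195 over genes). The labels state no pairing, and with so few libraries per group it cannot be told whether they share more than a number. With the number as a replicate block, 2353 genes passed in place of 2132, 16 members were lower and 2 higher; not every library correlated best with its own number. The 4 members with the fewest counts, 306 to 627 over all libraries (Abcg1, Idi1, Nr1h3, Mylip), had the largest standard errors, 0.26 to 0.42.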
